A study of Mus musculus with 4 samples.

Results

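Glycolysis and hypoxia response genes were examined in CD8+ T cells taken from B16-GP33 tumours in mice. The group comprised 38 genes taken by symbol from the deposited expression table of 24537 genes. It holds 24 genes of glucose uptake, glycolysis and the use of pyruvate and 14 genes of the hypoxia-inducible factor (HIF) pathway. All 38 had a mean of at least 1 FPKM (FPKM being a level of tags on exons corrected for gene length and library size), as did 9810 genes of the table. Pfkfb4, at a mean of 1.04 FPKM, lay just inside that limit, and no gene of the group lay below it. B16 cells are a melanoma line of the mouse, here carrying GP33, a viral peptide that T cells can recognise. All libraries came from tumours at day 21. The 2 libraries labelled EV were compared with 2 labelled ACSS2NLS. ACSS2 is an enzyme that turns acetate into acetyl-CoA; NLS commonly stands for nuclear localisation signal, and EV is not spelled out in the labels. The vector, the promoter that drives the added gene, the mouse strain and the mice behind each library are not given in the sources used here. No label says that the 2 libraries of a group came from separate mice, so p-values rest on a spread that may be technical.

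Glycolysis splits glucose into pyruvate in the cytosol, and activated T cells are known to run it at a high rate and to convert much of the pyruvate to lactate. HIF-1 is a transcription factor whose alpha subunit is hydroxylated by oxygen-dependent prolyl hydroxylases (the EGLN proteins), bound by the VHL protein and degraded. When oxygen is scarce, or after T cell receptor signals, the alpha subunit accumulates and raises transcription of glucose transporters, glycolytic enzymes and genes of oxygen delivery, mitophagy and growth restraint.

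Acss2 was at 3.66 and 3.92 FPKM in EV and at 80.7 and 86.3 FPKM in ACSS2NLS, the direction that the labels give. CD8 T cell markers (9 genes, all above 1 FPKM in each library) summed to 2292 and 1896 FPKM in EV replicates 1 and 2 and to 2141 and 1673 FPKM in ACSS2NLS replicates 1 and 2, lower in both replicate 2 libraries. All 4 B cell markers were under 1 FPKM in each library. Markers of other tumour cells varied. Melanoma markers (10 genes) summed to 5.62 and 39.4 FPKM in EV replicates 1 and 2 and to 11.96 and 140.7 FPKM in ACSS2NLS replicates 1 and 2. Myeloid markers (15 genes) summed to 75.5 and 473.7 FPKM in EV and to 184.9 and 737.1 FPKM in ACSS2NLS. Both sums were thus higher in both replicate 2 libraries than in both replicate 1 libraries. Within each replicate number, both sums were also higher in ACSS2NLS than in EV, and the CD8 T cell sum was lower. The groups overlapped in all 3 sums. Each of the 6 melanoma markers tested rose on average from EV to ACSS2NLS, by a median of 1.15 in log2. Their groups overlapped and none passed. Within the myeloid list, S100a8, S100a9 and Cd14 went the other way and were lower in both ACSS2NLS libraries. S100a8, a gene abundant in neutrophils, was at 3.21 and 24.4 FPKM in EV and at 0.053 and 0.802 FPKM in ACSS2NLS, and its partner S100a9 was at 2.87 and 24.1 FPKM in EV and at 0 and 0.401 FPKM in ACSS2NLS. Cd14, a monocyte receptor, was at 5.90 and 29.1 FPKM in EV and at 3.09 and 5.04 FPKM in ACSS2NLS. None of these 3 passed (limma adjusted p = 0.81 for each), and S100a9 had the lowest log2 change of all genes tested (-3.06). Summed stromal and endothelial markers (8 genes) ranged from 8.61 to 18.5 FPKM, red blood cell markers (6 genes) from 4.38 to 16.3 FPKM, and CD4 and regulatory T cell markers (5 genes; Ctla4, which exhausted CD8+ cells also make, held the largest part in 3 of the 4 libraries) from 48.3 to 189.6 FPKM. Total tags per library ranged from 46000000 to 49300000, to the nearest 100000. The least covered gene of the group in any library was Pfkfb4 in EV replicate 1, with 114 tags.

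No gene of the group passed the test of ACSS2NLS against EV (limma-trend, two-sided, Benjamini-Hochberg adjusted over 9810 genes, threshold 0.05), with adjusted p-values from 0.792 to 0.999. At an unadjusted p under 0.05, 3 genes were lower in ACSS2NLS and 0 higher, all 3 in the HIF group: Hif1a, Egln3 and Bhlhe40. Over all genes tested, 0.0204% passed upward and 0% downward by adjusted p, and 3.1% upward and 2.87% downward by unadjusted p. The median log2 change was 0.0041 for the 24 glycolysis genes and -0.047 for the 14 HIF genes, against 0.015 for all genes tested (ACSS2NLS mean minus EV mean of log2(FPKM + 1), which understates changes of low genes). Among glycolysis genes 12 had a higher and 12 a lower mean in ACSS2NLS, and no change exceeded 0.5 in size. Among HIF genes 4 changes exceeded that size, all downward, which is 28.6% of them, against 5.26% of all genes tested in either direction.

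The 2 ACSS2NLS libraries were both below the 2 EV libraries for 11 of the 38 genes and both above for 2. Of all genes tested, 18.1% had groups apart in the first direction and 19.3% in the second. The 11 lower genes were Hk1, Pfkp, Aldoc, Bpgm, Eno1, Pkm, Ldha, Hif1a, Egln3, Ddit4 and Bhlhe40, and the 2 higher were Pgam1 and Mif. Without 1 library at a time, 17 of the 38 genes kept the sign of their change, 14 of them lower and 3 higher. A gene whose groups do not overlap always keeps its sign, so the genes just named are among the 17. The share over all genes tested was not worked out for this count, so it is not a separate result.

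**Figure D1:**
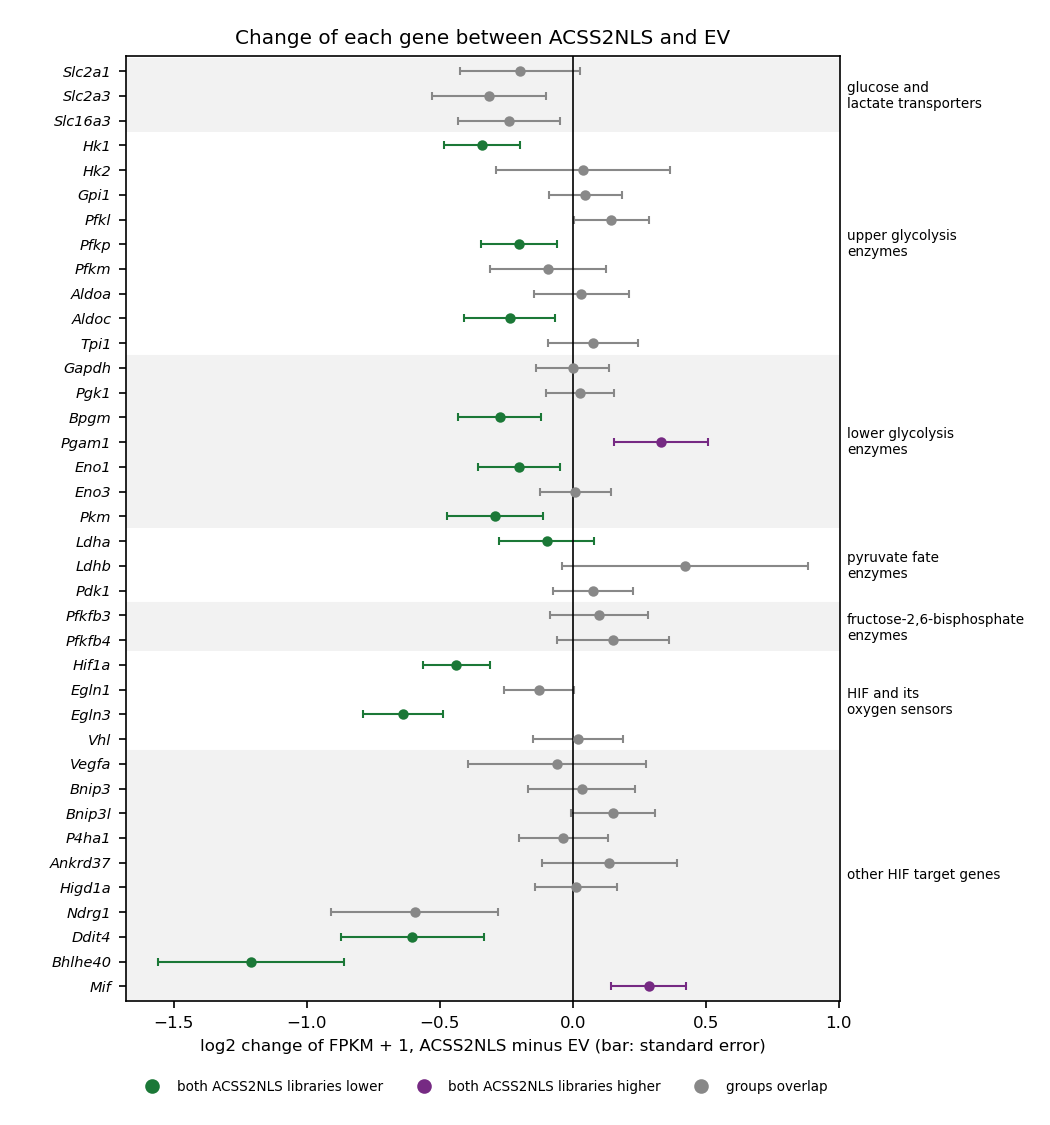
Log2 change of FPKM + 1 for each of the 38 genes, ACSS2NLS minus EV (x axis), with its standard error from limma as a bar, grouped by role (right); colours mark genes whose 2 libraries per group do not overlap. Glycolysis genes lie within 0.5 of 0, while Bhlhe40 (-1.21), Egln3 (-0.64), Ddit4 (-0.60) and Ndrg1 (-0.60) lie farthest to the left.

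The smallest unadjusted p-values of the group were those of Egln3 and Hif1a, from oxygen sensing, and of Bhlhe40, another HIF target. Hif1a (NM_001313920, mm10 chromosome 12, 73901324 to 73947530, plus strand), which encodes the HIF-1 alpha subunit, was at 106 and 103 FPKM in EV and at 72.1 and 82.0 FPKM in ACSS2NLS. Its groups did not overlap, and its mean was 1.36-fold higher in EV, a log2 change of -0.44 ± 0.13 (SE, n = 2 per group; limma unadjusted p = 0.015, adjusted p = 0.81). Egln3, the most strongly HIF-induced of the prolyl hydroxylases (NM_028133, chromosome 12, 54178981 to 54203874, minus strand), was at 4.99 and 4.65 FPKM in EV and at 2.53 and 2.96 FPKM in ACSS2NLS. The groups lay apart by more than the spread within either of them, with a mean 1.75-fold higher in EV and a log2 change of -0.64 ± 0.15 (limma unadjusted p = 0.00676, adjusted p = 0.792). Without any one library, Egln3 kept a change of -0.72 to -0.55 and Hif1a one of -0.53 to -0.35, and neither passed. The myeloid genes S100a8, S100a9 and Cd14, picked after their values were seen, were lower in both ACSS2NLS libraries too. Of the 14 measured myeloid markers, 11 had a higher mean in ACSS2NLS and 3 a lower one (median log2 change 0.81). The part of myeloid cells in the levels of Hif1a, Egln3, Ddit4 and Bhlhe40 was not tested. In these bulk samples, fewer cells of a type and less RNA per cell cannot be told apart.

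The other oxygen sensing genes differed less. Egln1, the main prolyl hydroxylase that marks HIF for degradation at normal oxygen, was at 29.5 and 25.4 FPKM in EV and at 23.5 and 26.5 FPKM in ACSS2NLS. Vhl, the recognition subunit of the ubiquitin ligase for HIF, was at 6.34 and 6.11 FPKM in EV and at 5.43 and 7.34 FPKM in ACSS2NLS. For both genes the groups overlapped, with log2 changes of -0.13 ± 0.13 for Egln1 and 0.020 ± 0.17 for Vhl. By level, Hif1a stood at the 96.8th percentile of the genes tested, Egln1 at the 83.7th, Vhl at the 45.0th and Egln3 at the 29.5th.

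Among the other HIF target genes, Bhlhe40 had the largest change of the group. It encodes a basic helix-loop-helix transcriptional repressor that is induced both by hypoxia and by T cell activation (NM_011498, chromosome 6, 108660629 to 108666925, plus strand). Its level was 447 and 228 FPKM in EV and at 161 and 118 FPKM in ACSS2NLS. The groups did not overlap, but the EV libraries themselves differed by 1.96-fold. The mean was 2.43-fold higher in EV, with a log2 change of -1.21 ± 0.35 (limma unadjusted p = 0.0155, adjusted p = 0.81), and 0.204% of all genes tested had a lower change. Without EV replicate 1, the library with the highest level, the log2 change was -0.72; without EV replicate 2 it was -1.70, and without ACSS2NLS replicates 1 and 2 it was -1.43 and -0.99.

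Ddit4 and Ndrg1, both induced by stress, had changes of similar size. Ddit4, which encodes REDD1, an inhibitor of mTORC1, was at 11.5 and 18.1 FPKM in EV and at 11.1 and 7.49 FPKM in ACSS2NLS. The groups did not overlap, though EV replicate 1 and ACSS2NLS replicate 1 were close (log2 change -0.60 ± 0.27). Without EV replicate 2, the library with the highest level, the change was -0.30, without ACSS2NLS replicate 2 it was -0.35, and without EV replicate 1 it was -0.91. Ndrg1, a stress-response gene widely used as a hypoxia marker, was at 10.8 and 15.005 FPKM in EV and at 5.77 and 11.3 FPKM in ACSS2NLS. Its groups overlapped, and ACSS2NLS replicate 1 was the low library (log2 change -0.60 ± 0.31, and -0.17 without that library). Neither passed (limma adjusted p = 0.81 for each).

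Mif, which encodes the cytokine macrophage migration inhibitory factor, had a higher mean in ACSS2NLS. It was at 121 and 142 FPKM in EV and at 156 and 163 FPKM in ACSS2NLS, so that both ACSS2NLS libraries were higher (a log2 change of 0.29 ± 0.14; adjusted p = 0.81 by limma). The other 6 targets had overlapping groups and log2 changes between -0.058 and 0.15. They were Vegfa, the angiogenic growth factor, Bnip3 and Bnip3l, receptors for mitophagy, P4ha1, a collagen prolyl hydroxylase subunit, Ankrd37, and Higd1a, a mitochondrial protein. Vegfa varied most among them, at 2.22 and 3.11 FPKM in EV and at 1.53 and 3.82 FPKM in ACSS2NLS, with both extremes in the ACSS2NLS group. Ankrd37 was at 10.6 and 5.97 FPKM in EV and at 8.75 and 9.04 FPKM in ACSS2NLS, with both extremes in EV.

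The promoters of 4 HIF targets show the sequence that the factor is known to recognise. The windows cover the 250 bases before the start site in the RefSeq promoter table (GRCm38.p6, the assembly called mm10). Each is printed in the direction of its gene, with the cores ACGTG and GCGTG capitalised on either strand (as CACGT and CACGC where they lie on the other strand). Egln3 and Ddit4 are shown because both ACSS2NLS libraries were lower for them. Ldha, whose groups were apart by little, and Ankrd37, whose groups overlapped, are shown beside them as targets with smaller changes.
Egln3 (chr12:54203875-54204124, minus strand): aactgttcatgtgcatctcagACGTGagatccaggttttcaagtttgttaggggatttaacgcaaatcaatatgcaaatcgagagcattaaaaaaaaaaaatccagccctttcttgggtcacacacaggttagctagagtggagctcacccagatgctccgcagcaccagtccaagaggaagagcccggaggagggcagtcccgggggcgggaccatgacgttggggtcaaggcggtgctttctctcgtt
Ddit4 (chr10:59951771-59952020, minus strand): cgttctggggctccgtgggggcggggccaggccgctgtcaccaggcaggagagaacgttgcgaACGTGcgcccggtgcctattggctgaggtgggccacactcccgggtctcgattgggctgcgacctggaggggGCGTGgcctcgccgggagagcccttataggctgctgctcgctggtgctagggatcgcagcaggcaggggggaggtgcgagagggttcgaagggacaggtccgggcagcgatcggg
Ldha (chr7:46845554-46845803, plus strand): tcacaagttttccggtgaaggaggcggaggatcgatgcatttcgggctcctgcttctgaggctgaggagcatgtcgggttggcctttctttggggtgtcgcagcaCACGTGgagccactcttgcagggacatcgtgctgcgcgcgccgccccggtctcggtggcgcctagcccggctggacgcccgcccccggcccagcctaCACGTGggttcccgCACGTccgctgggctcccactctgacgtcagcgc
Ankrd37 (chr8:45999851-46000100, minus strand): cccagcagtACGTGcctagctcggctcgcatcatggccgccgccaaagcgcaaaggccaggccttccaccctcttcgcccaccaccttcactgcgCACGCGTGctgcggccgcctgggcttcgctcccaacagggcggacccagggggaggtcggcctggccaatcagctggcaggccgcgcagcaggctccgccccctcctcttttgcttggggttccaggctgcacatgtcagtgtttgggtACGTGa

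Egln3 held 1 match to ACGTG in its 250 bases and Ddit4 held 1 match to each core. Ldha held 5 matches to ACGTG, of which 4 come from 2 copies of the palindrome CACGTG, read once per strand, a site that basic helix-loop-helix proteins such as BHLHE40 are also known to bind. Ankrd37 held 2 matches to each core, with its 2 matches to GCGTG overlapping each other. These 4 windows were picked for display, and no relation between matches and changes was tested. In the whole 300-base windows (50 bases past the start included), ACGTG was found for 19 of the 34 genes of the group with a window, or 55.9%, against 19.6% of all 32851 windows. GCGTG was found for 18 of 34 (52.9%, against 32.4%), either core for 26 of 34 (76.5%, against 43.8%) and CACGTG for 4 of 34 (11.8%, against 7.15%). Base composition differed too: the windows of the group had a median of 22.5 CG dinucleotides, against 7 in all windows, and both cores contain CG. A match is a description of the sequence and not a measured binding site.

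Levels along the pathway ran from a mean of 1.04 FPKM (Pfkfb4) to one of 581 FPKM (Ldha). Ldha, which encodes the lactate dehydrogenase subunit that favours lactate production, was at 631 and 571 FPKM in EV and at 550 and 571 FPKM in ACSS2NLS. Its groups were apart by less than 1 FPKM between the nearest libraries (log2 change -0.10 ± 0.18, and 0.040 after quantile normalization). Aldoa (the main aldolase), Pkm (pyruvate kinase) and Tpi1 (triosephosphate isomerase) followed, at means of 399, 367 and 254 FPKM over the 4 libraries. With Ldha and Bhlhe40 they were the 5 genes of the group in the top 1% of the genes tested by level. In all, 13 of the 38 stood in the top 10% and 11 below the median. Neighbours in this order, such as Aldoa and Pkm, overlapped across libraries (356 to 435 and 313 to 446 FPKM).

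**Figure D2:**
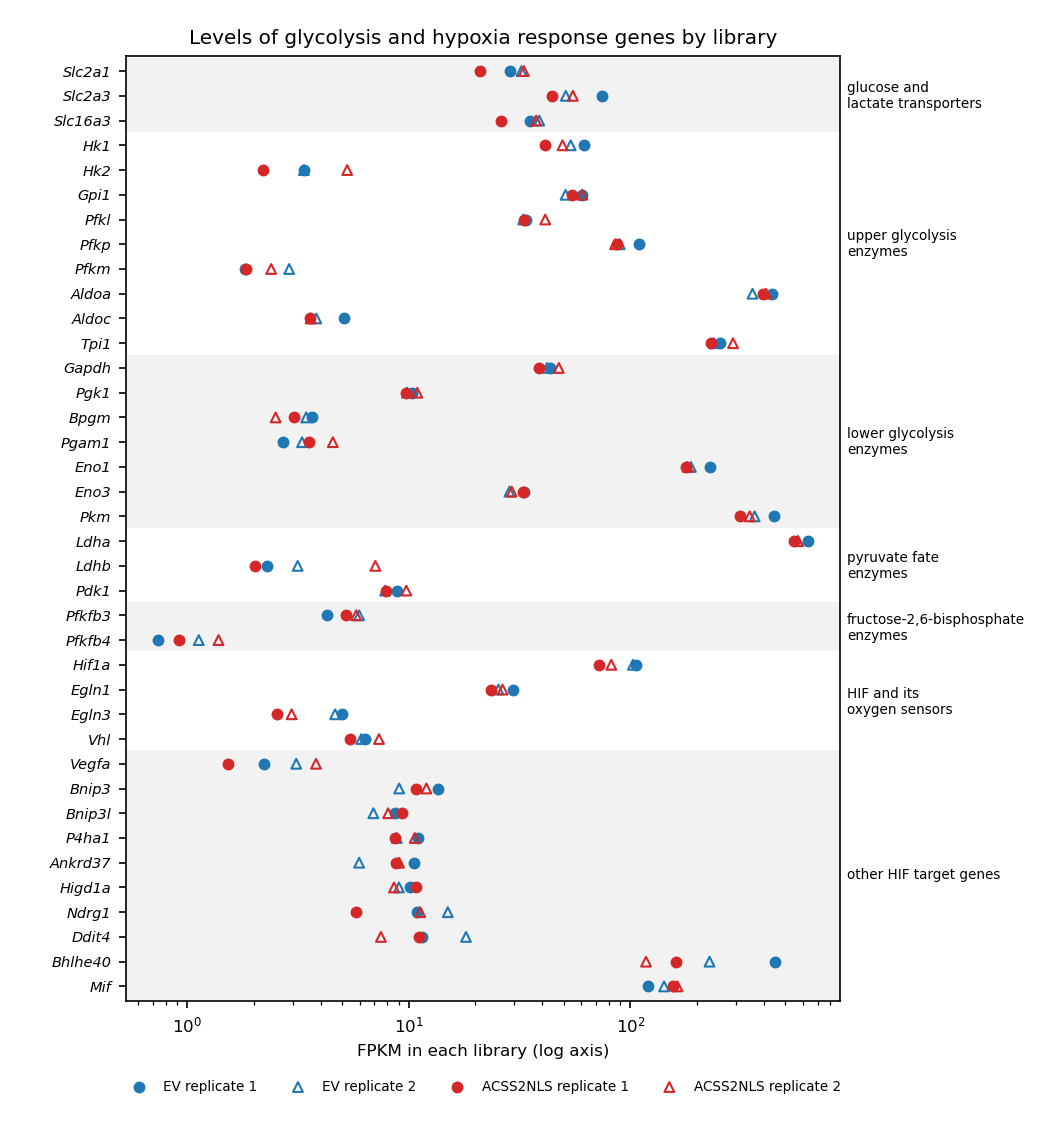
FPKM of the 38 genes in each library (log x axis), with EV in blue, ACSS2NLS in red, circles for replicate 1 and open triangles for replicate 2, grouped by role. Levels run from Pfkfb4 near 1 FPKM to Ldha at 550 to 631 FPKM, and for most genes the 4 libraries lie close together by comparison.

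All 3 transporters had a lower mean in ACSS2NLS, with overlapping groups. Slc2a3, the high-affinity glucose transporter GLUT3, was at 74.6 and 51.1 FPKM in EV and at 44.5 and 55.0 FPKM in ACSS2NLS (log2 change -0.31 ± 0.21). Slc2a1, which encodes GLUT1, was at 28.6 and 32.3 FPKM in EV and at 20.9 and 33.1 FPKM in ACSS2NLS (-0.20 ± 0.22). Slc16a3, the lactate exporter MCT4, was at 35.4 and 38.8 FPKM in EV and at 25.9 and 37.6 FPKM in ACSS2NLS (-0.24 ± 0.19). ACSS2NLS replicate 1 was the lowest library for each of the 3, and without it Slc2a1 and Slc16a3 had log2 changes of 0.12 and 0.019. Slc2a3 rested on EV replicate 1 as well, with a log2 change of -0.046 without that library, -0.16 without ACSS2NLS replicate 1 and -0.58 without EV replicate 2. Slc2a3 exceeded Slc2a1 in each library, by 1.58-fold to 2.61-fold in FPKM.

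In the upper part of glycolysis, which uses ATP to make triose phosphates, Hk1 had the largest change. Hk1, a hexokinase, which phosphorylates glucose, was at 61.7 and 53.8 FPKM in EV and at 41.4 and 49.4 FPKM in ACSS2NLS. Both ACSS2NLS libraries were lower (log2 change -0.34 ± 0.14, limma unadjusted p = 0.0573, adjusted p = 0.81). Hk2, the inducible hexokinase, was much lower than Hk1 in each library, at 3.36 and 3.36 FPKM in EV and at 2.20 and 5.28 FPKM in ACSS2NLS, where the libraries stood on either side of the EV pair. Hk1 exceeded Hk2 by 9.37-fold in ACSS2NLS replicate 2 and by 16.0-fold to 18.8-fold in the other libraries.

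Phosphofructokinase, the main control point of the pathway, was represented mostly by Pfkp. The platelet-type Pfkp was at 110 and 89.6 FPKM in EV and at 87.1 and 85.3 FPKM in ACSS2NLS, with groups apart and EV replicate 1 the high library (log2 change -0.20 ± 0.14). It made up 71.5% to 75.5% of the summed FPKM of the 3 phosphofructokinase genes in EV and 66.1% to 71.4% in ACSS2NLS. The liver-type Pfkl made up 23.2% to 26.2% in EV and 27.0% to 32.0% in ACSS2NLS, and the muscle-type Pfkm 1.26% to 2.30% over the 4 libraries. These shares are given without a test, since 2 libraries against 2 are too few for an exact one to reach 0.05. Gpi1, Aldoa and Tpi1 had overlapping groups and log2 changes of 0.048, 0.032 and 0.077. Aldoc, the brain-type aldolase, was low (5.10 and 3.83 FPKM in EV, 3.60 and 3.61 FPKM in ACSS2NLS), and Aldoa exceeded it by 85.3-fold to 114-fold. The bifunctional PFKFB enzymes set the level of an activator of phosphofructokinase. Pfkfb3 was at 4.27 to 5.97 FPKM and Pfkfb4 at 0.742 to 1.39 FPKM over the libraries, with overlapping groups.

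In the lower part, which yields ATP and pyruvate, Pkm and Eno1 were lower in both ACSS2NLS libraries and Pgam1 was higher in both. Pkm was at 446 and 364 FPKM in EV and at 313 and 346 FPKM in ACSS2NLS (a log2 change of -0.29 ± 0.18; adjusted p = 0.822 by limma). Eno1, the common enolase, was at 229 and 188 FPKM in EV and at 179 and 182 FPKM in ACSS2NLS (-0.20 ± 0.16). For both, EV replicate 1 was the highest library, at 1.22-fold the next and at 1.43-fold (Pkm) and 1.28-fold (Eno1) the lowest. Without EV replicate 1 the log2 changes shrank to -0.15 for Pkm, -0.057 for Eno1, -0.055 for Pfkp, -0.069 for Aldoc and -0.027 for Ldha. Pgam1, a phosphoglycerate mutase, was at 2.71 and 3.30 FPKM in EV and at 3.56 and 4.54 FPKM in ACSS2NLS (0.33 ± 0.18). Bpgm, which makes and breaks bisphosphoglycerate, was at 3.66 and 3.44 FPKM in EV and at 3.03 and 2.51 FPKM in ACSS2NLS (-0.28 ± 0.16).

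Gapdh, Pgk1 and Eno3 had the smallest changes of the lower enzymes. Gapdh was at 43.6 and 42.1 FPKM in EV and at 38.6 and 47.6 FPKM in ACSS2NLS, Pgk1 at 10.4 and 9.82 FPKM and at 9.72 and 10.9 FPKM, and Eno3, the muscle-type enolase, at 33.2 and 28.5 FPKM and at 32.9 and 29.2 FPKM. Their groups overlapped. The log2 changes were -0.0011 ± 0.14 for Gapdh, 0.027 ± 0.13 for Pgk1 and 0.0093 ± 0.13 for Eno3.

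The levels of several genes of the group are uncertain, because much of their sequence also occurs in annotated pseudogenes. In the GENCODE M21 transcripts, 90.4% of the 50-base stretches of Gapdh were also found in an annotated pseudogene, and 213 pseudogenes held at least 1 of them. The share was 68.0% for Pgk1, 52.8% for Eno1, 51.1% for Mif and 41.5% for Pgam1. It was 30.5% for Pkm, 19.1% for Ldha, 9.14% for Aldoa and 7.51% for Tpi1. It was 0% for 23 of the 38 genes, Hk1, Hif1a, Egln3, Ddit4 and Bhlhe40 among them. Counted against any other gene, the share was 76.4% for Mif, 72.2% for Eno1 and 62.4% for Bnip3. For Gapdh, Pgk1 and Pgam1 it stayed at 90.4%, 68.0% and 41.5%. The sources used here do not say how reads that fit several places were counted. The levels of these genes, and their order next to other genes, may therefore not reflect their transcripts. A comparison between libraries of the same gene carries the same limit in each library.

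**Figure D3:**
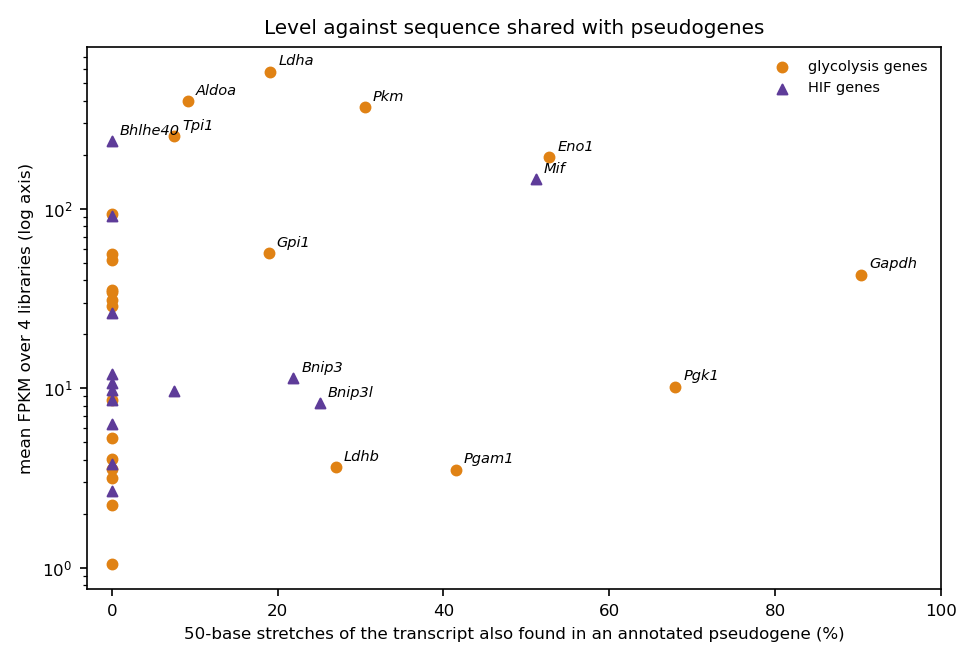
Mean FPKM over the 4 libraries (log y axis) against the percentage of the 50-base stretches of each gene's transcript that also occur in an annotated pseudogene (x axis), 1 point per gene. Gapdh (90.4%), Pgk1 (68.0%) and Pgam1 (41.5%) stand at 3.53 to 43.0 FPKM, below Ldha, Aldoa, Pkm and Tpi1, while Eno1 and Mif, at just over 50%, stand at 194 and 146 FPKM.

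Pyruvate goes to lactate through lactate dehydrogenase or into mitochondria through pyruvate dehydrogenase. Ldhb, the subunit that favours the reverse reaction, was at 2.29 and 3.15 FPKM in EV and at 2.03 and 7.07 FPKM in ACSS2NLS. The high library was ACSS2NLS replicate 2, at 2.24-fold the next, and it also had the highest summed melanoma and myeloid markers; their part in the result was not tested. The log2 change of Ldhb was 0.42 ± 0.46, and -0.29 without that library. Ldha exceeded Ldhb by 80.8-fold in ACSS2NLS replicate 2 and by 181-fold to 276-fold in the other libraries. Pdk1, a HIF-induced kinase that inhibits pyruvate dehydrogenase, was at 8.81 and 7.83 FPKM in EV and at 7.94 and 9.75 FPKM in ACSS2NLS, with overlapping groups.

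The libraries differed in ways that crossed the groups. ACSS2NLS replicate 1 was the lowest library for 20 of the 38 genes (52.6%), against 31.7% of all genes tested. It was the highest for 2 of the 38. EV replicate 1 was the highest for 17 genes (44.7%, against 25.2% of all genes tested) and ACSS2NLS replicate 2 for 14 (36.8%, against 33.7%). The summed FPKM of 18 glycolytic enzymes and lactate dehydrogenase subunits was 2367 and 2045 in EV and 1983 and 2149 in ACSS2NLS, which is 1.17% and 1.05% and then 0.994% and 1.13% of the summed FPKM of each library. The 2 groups overlapped in that sum, with the highest and the lowest library both carrying replicate number 1.

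Both replicate 2 libraries, those with more melanoma and myeloid transcripts, were above both replicate 1 libraries for 9 of the 38 genes: Slc2a1, Slc16a3, Hk2, Pfkm, Ldhb, Pfkfb3, Pfkfb4, Vegfa and Ndrg1. That is 23.7% of the group, next to 24.9% of all genes tested. The reverse held for 3 of the 38 (7.89%, next to 16.6%), namely Eno3, Bnip3l and Higd1a. The part of other cells in these levels was not tested. Ndrg1, whose groups overlapped, was lower in ACSS2NLS than in EV within replicate number 1 (5.77 against 10.8 FPKM) and within replicate number 2 (11.3 against 15.005 FPKM). Slc16a3, whose groups also overlapped, was lower within both numbers as well. Bnip3l and Pfkfb4, again with overlapping groups, went the other way and were higher in ACSS2NLS within both numbers. No label says that a shared number pairs 2 libraries, and the share of all genes with either pattern was not worked out.

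**Figure D4:**
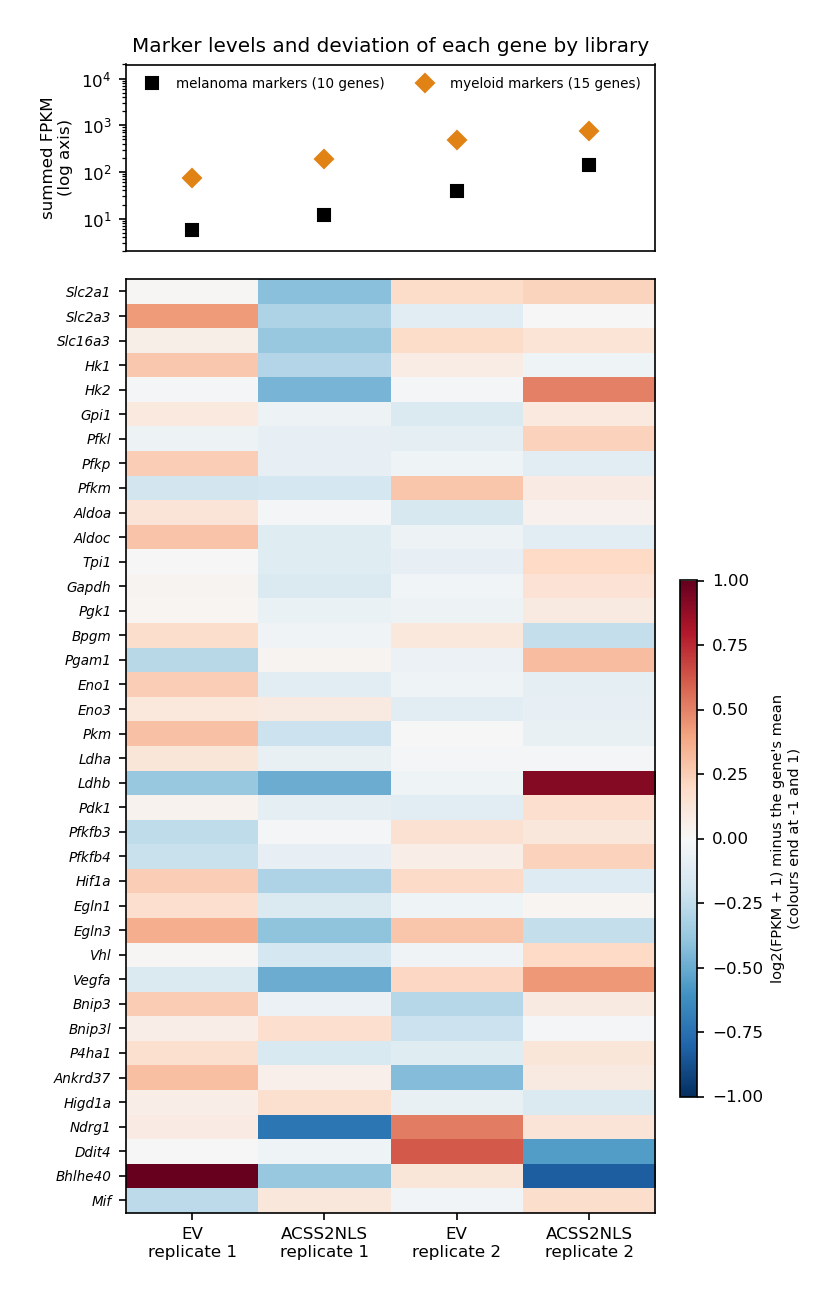
Top: summed FPKM of melanoma markers (squares) and myeloid markers (diamonds) in each library (log y axis). Bottom: log2(FPKM + 1) of each of the 38 genes in each library minus the mean of that gene over the 4 libraries, red for above and blue for below; ACSS2NLS replicate 1 is the lowest library for 20 of the 38 genes, and Ldhb stands out in ACSS2NLS replicate 2, where both marker sums peak.

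Further genes of the same pathways, outside the 38, were also compared. Of 16 measured genes of further glycolysis and pyruvate steps, 6 had a higher and 10 a lower mean in ACSS2NLS (median log2 change -0.026), and 0 passed by adjusted or unadjusted p. Txnip, an inhibitor of glucose uptake that is itself induced by glucose, had a change of -0.39 ± 0.17, from 29.6 and 36.1 FPKM to 21.7 and 28.1 FPKM. Gpd2, the mitochondrial glycerol phosphate dehydrogenase, had -0.28 ± 0.13, and Slc2a8, a further glucose transporter, had -0.29 ± 0.14. Adpgk, an ADP-dependent glucokinase, had 0.29 ± 0.14. These 4 had the smallest unadjusted p of the 16, and their groups did not overlap. Of the 16, 3 had groups apart downward (18.8%) and 1 upward (6.25%), against 18.1% and 19.3% of all genes tested.

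The 13 measured genes of the pentose phosphate pathway and glycogen turnover had 6 higher and 7 lower means (median -0.010), and 0 had an unadjusted p under 0.05. G6pdx and Pgd, the NADPH-making dehydrogenases, had changes of 0.22 ± 0.18 and 0.13 ± 0.14, Ugp2 had -0.10 ± 0.16 and Pygl, a glycogen phosphorylase, -0.20 ± 0.35. In each of these 4 the groups overlapped.

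Of 9 measured genes of the HIF pathway machinery, 5 had a higher and 4 a lower mean (median 0.030). Rbx1, the RING subunit of the VHL ubiquitin ligase, was at 16.9 and 17.9 FPKM in EV and at 24.3 and 21.1 FPKM in ACSS2NLS (log2 change 0.36 ± 0.12, limma unadjusted p = 0.0279, adjusted p = 0.81). Cul2 and Eloc, other subunits of that ligase, had 0.14 ± 0.12 and 0.18 ± 0.20, and Egln2, the third prolyl hydroxylase, had -0.12 ± 0.12. None passed by adjusted p.

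Of 22 further measured HIF targets, 13 had a higher and 9 a lower mean (median 0.035), and 0 passed by adjusted or unadjusted p. Plod2, a lysyl hydroxylase for collagen, was at 4.63 and 3.93 FPKM in EV and at 3.02 and 3.19 FPKM in ACSS2NLS (-0.36 ± 0.15). Hilpda, which promotes lipid droplets under hypoxia, was at 90.025 and 39.8 FPKM in EV and at 45.6 and 27.6 FPKM in ACSS2NLS (-0.74 ± 0.42), with EV replicate 1 the high library and overlapping groups. Fam162a, a hypoxia-induced mitochondrial protein gene, had 0.22 ± 0.14. Car9, the hypoxia-induced carbonic anhydrase of many tumours, was at 0.570 and 0.824 FPKM in EV and at 0.569 and 2.97 FPKM in ACSS2NLS. Its high library was again the one with the most melanoma and myeloid marker transcripts, whose part was not tested.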

How the data were processed

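Total RNA was sequenced in 4 libraries, 2 per group, made with a SMART-Seq v4 low-input kit, per the labels' protocols. The submitters' processing notes name STAR 2.5.3a, HOMER and the mm10 build. The deposited values are FPKM, which HOMER wrote from exon tags on the sense strand with 1 transcript per gene, per the file headers; no count test was run on them. The sources used here do not say whether libraries kept strand. The deposited columns are named Acss2WT and Acss2OE with a replicate number and were read as EV and ACSS2NLS; the header names 8 tag directories and the table has 4 library columns, all used.

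Low FPKM values times gene length fell on whole multiples of 1 tag (100% of values, tolerance 0.1 of a tag), which gave the total tags and the tags per gene. Genes averaging 1 FPKM or more were compared on log2(FPKM + 1) with limma-trend (limma 3.58.1, R 4.3.3), two-sided, adjusted over 9810 genes. The test was also run on simulated data with independent noise in each library. Deviations of same-numbered libraries correlated at 0.58 in the real data, so that run does not show how the test behaves on them. The 38 genes, the further lists and the markers were chosen with earlier results of these data known. All 38 are named, with up to 4 genes per further list by smallest unadjusted p. Hmox1, S100a8, S100a9, Cd14 and Ctla4 were chosen after their values were seen. Alternatives covered the pseudocount, the filter, 2 rescalings, the replicate number as a term and each library left out. Promoter windows came from the RefSeq table (34 of 38 genes matched, 26 at the start site of the deposited table) and transcripts from GENCODE M21 by RefSeq identifier (38 of 38).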

Additional observations from a re-analysis of the deposited data

How the results depend on the processing

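No gene of the group passed under 10 of the 11 alternatives. With the replicate number as a block, 4 passed downward and 0 upward: Bhlhe40, Ndrg1, Egln3 and Hif1a (limma adjusted p = 1.24e-05, 0.0203, 0.0276 and 0.0481), with the same log2 changes. That fit has 1 residual degree of freedom and called 229 genes higher and 172 lower over all genes, against 2 and 0. Deviations of same-numbered libraries correlated at 0.58 over all genes tested and 0.41 over the group, but no label says that a number marks a shared mouse or batch, so the block is not the main result. With no filter on low values 38 genes were called higher and 4 lower, none in the group. Leaving out 1 library, which leaves a lone library assumed to vary like the other group, 0 to 9 genes were called lower (9 without EV replicate 1). The median log2 change then ran from -0.16 to 0.081 for glycolysis genes (-0.16 without ACSS2NLS replicate 2) and from -0.23 to 0.0096 for HIF genes (-0.23 without EV replicate 2, -0.19 without ACSS2NLS replicate 2). For 21 of the 38 genes the sign turned without some library, with log2 changes of Aldoa -0.11 to 0.18, Ankrd37 -0.23 to 0.51, Bnip3 -0.23 to 0.30, Eno3 -0.099 to 0.12, Gapdh -0.15 to 0.15, Gpi1 -0.074 to 0.17, Higd1a -0.14 to 0.16, Hk2 -0.45 to 0.53, Ldhb -0.29 to 1.13, P4ha1 -0.18 to 0.11, Pdk1 -0.058 to 0.21, Pfkfb3 -0.10 to 0.30, Pfkfb4 -0.0048 to 0.31, Pfkl -0.014 to 0.30, Pfkm -0.32 to 0.14, Pgk1 -0.050 to 0.10, Slc16a3 -0.50 to 0.019, Slc2a1 -0.52 to 0.12, Tpi1 -0.084 to 0.24, Vegfa -0.52 to 0.40, Vhl -0.17 to 0.21. Quantile normalization turned Hk2 (-0.0045), Gapdh (0.032), Ldha (0.040), Vhl (-0.0010) and Higd1a (-0.0023), and upper-quartile scaling turned Gapdh (0.013). The cause was not tested. At a mean of at least 5 FPKM, 29 of the 38 genes were left.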
